A study of Mus musculus with 12 samples.

Results

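The genes described here are 10 that encode regulators of inflammatory signalling, most of them inhibitors: Nfkbia, Nfkbiz, Nfkbid, Bcl3, Tnfaip3, Irak3, Socs3, Zfp36, Zfp36l1 and Zfp36l2. They were chosen by symbol, for their known roles, from 53379 genes in the table of raw counts, with symbols given to the Ensembl identifiers by GENCODE release M21. Earlier results of these data were known when they, and the lists of connected genes below, were chosen. All 10 passed the filter on low counts, as did 12386 genes in all. Each was followed through bone marrow-derived macrophages (BMDMs) left untreated or given 1 µM fenoterol, an agonist of the β2-adrenergic receptor, for 1 h or 4 h. The macrophages came from 4 C57Bl/6J male mice aged 8 to 20 weeks, grown for 7 days in medium conditioned by L929 cells, and cells of every mouse gave 1 library of each group, 12 in all. All groups stayed in that growth medium, and the labels name no stimulus besides fenoterol.

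NF-κB transcription factors are held in the cytoplasm by IκB proteins such as IκBα, the product of Nfkbia, until a receptor signal has them degraded. A nuclear branch of the same protein family, made by Nfkbiz, Nfkbid and Bcl3, binds NF-κB on DNA and tunes which target genes are read, in either direction. Upstream, A20 (Tnfaip3) edits ubiquitin chains on signalling complexes, IRAK-M (Irak3) holds back Toll-like and interleukin-1 receptor signalling, and SOCS3 (Socs3) blocks cytokine receptors that act through STAT3. After transcription, tristetraprolin (Zfp36) and its relatives ZFP36L1 and ZFP36L2 bind AU-rich elements in the 3′ untranslated region (UTR) of cytokine mRNAs and bring in the enzymes that shorten the poly(A) tail. Many of these genes are themselves NF-κB targets or carry AU-rich elements, so both kinds of sequence were looked up in the genes.

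The libraries held between 14580533 and 24153284 counts, and none of 30 sets of 4 values, 1 for each gene and group, held a value far from the other 3. Macrophage markers (Adgre1, Itgam, Cd68, Mertk, Fcgr1, Lyz2) summed to between 32169 and 33484 CPM (counts relative to the library total) untreated, 27720 and 31768 at 1 h, and 27755 and 31100.3 at 4 h. These sums use library totals without the TMM scaling applied to normalized counts, whose factors were 1.004 to 1.023 untreated and 0.953 to 0.974 at 1 h. Most of the sum was Lyz2, at a mean of 488584 normalized counts untreated, with Adgre1 next at 89939. With that scaling Lyz2 at 1 h differed by −0.058 ± 0.076 (log2 fold change ± SE, edgeR adjusted p = 0.684). At 4 h Mertk (log2 fold change −1.51 ± 0.054), Adgre1 (−0.21 ± 0.066) and Cd68 (−0.22 ± 0.074) were lower and Fcgr1 (0.72 ± 0.14) and Itgam (0.42 ± 0.049) higher, and at 1 h Mertk alone of the 6 passed (−0.20 ± 0.052). Leaving out 1 library lost the calls of Mertk at 1 h (untreated 2, 1 h 1 or 3, adjusted p up to 0.0546), Adgre1 (untreated 2, 4 h 1, up to 0.0567) and Cd68 (untreated 1, 4 h 2 or 4, up to 0.0904). Each list of markers of neutrophils, B cells, T cells, dendritic cells, stromal cells, or mast cells and basophils summed to at most 66.8 CPM in any library, with Cd8a and Tpsb2 at 0 throughout. The part of these markers in the results below was not tested. In bulk RNA, fewer cells with a transcript and less of it per cell cannot be told apart.

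The AU-rich heptamer TATTTAT, the core that the ZFP36 proteins favour, was found on the sense strand in the 3′ UTR of 6 of the 10 genes. It occurred 2 times in each of Nfkbia, Tnfaip3 and Socs3, and 3 times in each of Zfp36, Zfp36l1 and Zfp36l2. It was not found in the 3′ UTR of Nfkbiz, Nfkbid, Bcl3 or Irak3. Of 11204 tested genes with a 3′ UTR, 27.4% held the heptamer and 3.33% held it 3 times or more. The genes described here carried 1.29 heptamers per kb of 3′ UTR against 0.287 over those tested genes, with a median UTR of 1211 against 965 bases. Windows of 30 bases are printed for the 5 of these genes that passed a test in some comparison, with 1 heptamer each for Zfp36l1 and Tnfaip3, from GRCm38 with the GENCODE annotation, 5′ to 3′ on the gene's strand and written as DNA. Capitals mark the heptamer, including the first letters of a neighbouring one at the edge of the first Zfp36 window, and the last letters of it in the second.
Zfp36, chr7:28376965-28376994, minus strand: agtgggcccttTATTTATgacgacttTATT
Zfp36, chr7:28376950-28376979, minus strand: TATgacgacttTATTTATtgtattaagatt
Zfp36, chr7:28376925-28376954, minus strand: agattttatagTATTTATatatattgggtc
Zfp36l1, chr12:80108421-80108450, minus strand: ttatcaaaacgTATTTATtgccaaactatg
Tnfaip3, chr10:19001033-19001062, minus strand: tgtgaaatggtTATTTATacttatagaaag
Nfkbia, chr12:55489607-55489636, minus strand: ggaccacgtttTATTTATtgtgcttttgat
Nfkbia, chr12:55489418-55489447, minus strand: tctaagatgtaTATTTATtaaacagatttt
Socs3, chr11:117966138-117966167, minus strand: ctttgcacataTATTTATATTTATactcag
In Zfp36 the 3 heptamers started 575, 590 and 615 bases into a UTR of 774 bases. In Socs3 both overlapped in a single run near the end of a UTR of 1474 bases. A match describes the letters only and is not a measured binding site.

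RefSeq gave windows from 250 bases before to 50 bases after a transcription start for 8 of the 10 genes, 12 windows in all, on GRCm38.p6. No entry was held for Nfkbiz or Zfp36l2. The motifs searched, on both strands, were the cyclic AMP response element (CRE) TGACGTCA, bound by CREB downstream of receptors that raise cyclic AMP, its shorter core TGACG, which the full element also contains, and the NF-κB consensus. Over 32851 such windows, 1.79% held the full CRE, 20.8% the core and 8.46% the NF-κB consensus. An NF-κB match was present in 4 of the 12 windows, 1 each of Nfkbia, Nfkbid, Tnfaip3 and Bcl3. The CRE core was present in 3 of the 12, of Nfkbid, Tnfaip3 and Irak3, and the full CRE in Nfkbid alone among the 8. Windows are printed for Nfkbid and Tnfaip3, which held the most matches, and for Nfkbia, the main cytoplasmic inhibitor, with all matches in capitals.
Nfkbid, chr7:30422156-30422455, plus strand: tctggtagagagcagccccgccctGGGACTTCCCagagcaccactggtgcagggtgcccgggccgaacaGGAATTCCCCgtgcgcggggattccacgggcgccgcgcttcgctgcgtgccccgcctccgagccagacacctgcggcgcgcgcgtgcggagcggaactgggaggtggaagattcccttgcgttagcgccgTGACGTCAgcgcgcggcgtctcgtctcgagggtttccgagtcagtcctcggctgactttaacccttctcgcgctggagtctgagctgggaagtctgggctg
Tnfaip3, chr10:19015361-19015660, minus strand: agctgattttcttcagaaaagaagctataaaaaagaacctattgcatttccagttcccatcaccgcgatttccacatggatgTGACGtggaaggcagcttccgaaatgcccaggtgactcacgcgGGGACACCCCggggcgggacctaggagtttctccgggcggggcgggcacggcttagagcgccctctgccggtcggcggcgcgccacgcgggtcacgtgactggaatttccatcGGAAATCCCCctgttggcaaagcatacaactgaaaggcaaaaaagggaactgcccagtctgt
Nfkbia, chr12:55492598-55492897, minus strand: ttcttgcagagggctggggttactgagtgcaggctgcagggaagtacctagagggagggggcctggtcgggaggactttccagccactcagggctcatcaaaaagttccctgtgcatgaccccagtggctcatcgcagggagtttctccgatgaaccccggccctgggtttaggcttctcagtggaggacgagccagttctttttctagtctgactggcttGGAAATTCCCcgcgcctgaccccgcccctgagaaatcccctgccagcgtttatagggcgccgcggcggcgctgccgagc
In Nfkbid the full CRE lay at positions −51 to −44 from the start and both NF-κB matches further out, at −226 to −217 and −181 to −172. The other windows of Nfkbid had no match. In Tnfaip3 one NF-κB match lay at −12 to −3 and the other at −125 to −116, with the CRE core at −168 to −164. The Nfkbia match lay at −29 to −20. The single Bcl3 match lay just inside the transcript, at 3 to 12. No letters of these motifs were present in the windows of Socs3, Zfp36 and Zfp36l1, which says nothing about sites outside them.

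**Figure D1:**
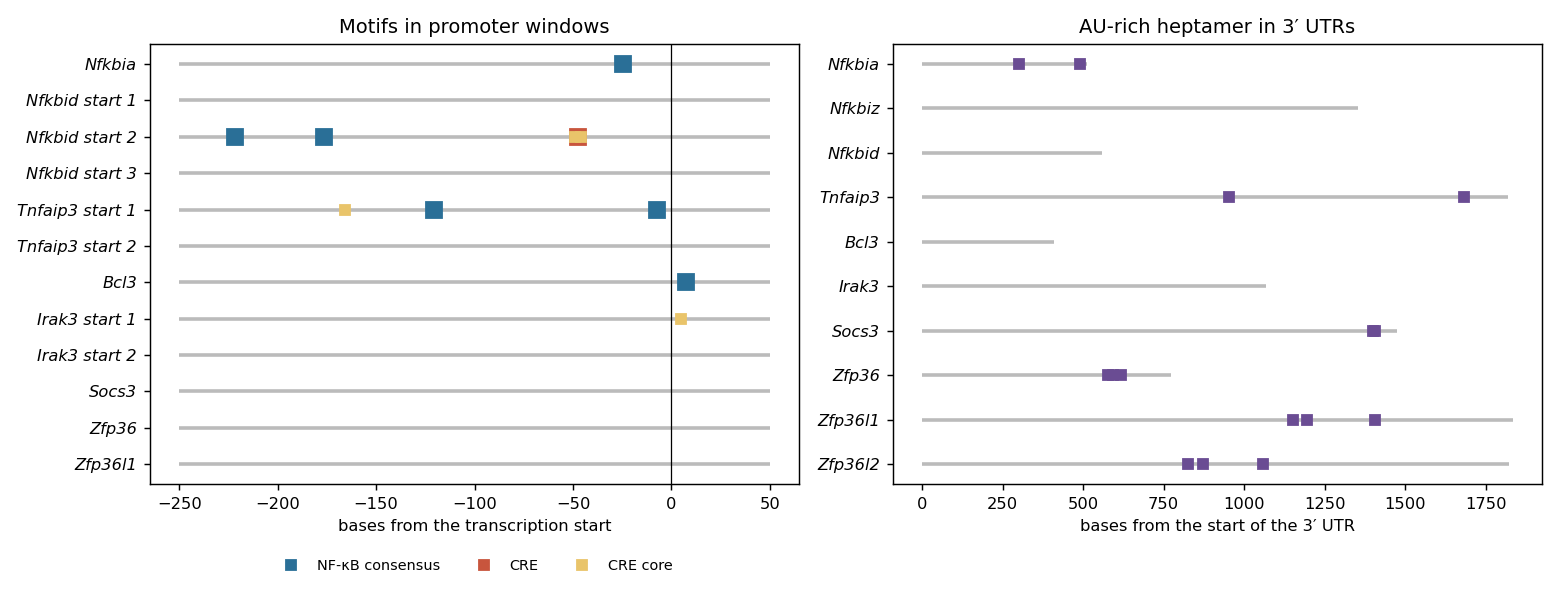
Positions of motif matches in the 12 promoter windows (left, in bases from the transcription start, both strands) and of the AU-rich heptamer in the 3′ UTR of each gene (right, in bases from the end of the coding sequence; grey lines show the length of the UTR). Nfkbid, Tnfaip3, Nfkbia and Bcl3 hold NF-κB matches, and 6 of the 10 UTRs hold 2 or 3 heptamers.

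Between genes, levels were compared as CPM per kb of exon, where CPM, unlike that of the marker sums, included the TMM scaling. In untreated BMDMs Zfp36l1 stood highest, at 91.4 ± 16.4 (SD, n = 4), then Zfp36l2 at 63.1 ± 4.11, Nfkbia at 53.2 ± 3.04 and Zfp36 at 51.4 ± 6.47. Libraries of Zfp36 overlapped those of both Nfkbia and Zfp36l2, so the place of Zfp36 was not resolved. Bcl3 at 17.7 ± 1.57 and Irak3 at 16.7 ± 0.72 overlapped as well. Below them came Nfkbiz at 9.21 ± 1.60, Nfkbid at 6.81 ± 0.66, Tnfaip3 at 4.87 ± 0.40 and Socs3 at 2.15 ± 0.38, each apart from its neighbours. Zfp36l1 led with either measure of length, but places 2 to 4 rested on it, since Zfp36 moved from place 4 to place 2 when the longest transcript replaced all exon bases.

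At 1 h of fenoterol 7 of the 10 genes passed the test (edgeR quasi-likelihood, adjusted p under 0.05), 4 higher and 3 lower. Of all genes tested, 20.1% passed, 10.0% higher and 10.1% lower. Zfp36, Nfkbid, Tnfaip3 and Bcl3 rose, and Nfkbiz, Zfp36l1 and Nfkbia fell. At 4 h 6 passed, 3 higher and 3 lower, against 40.0% of all genes, 19.7% higher and 20.4% lower. Zfp36, Nfkbid and Bcl3 were then still above untreated, Nfkbia and Nfkbiz were below, and Tnfaip3 had gone from above to below. The median log2 fold change of the 10 genes was 0.26 at 1 h and −0.16 at 4 h, against −0.0049 and 0.0042 over all genes tested. Both comparisons use the same 4 untreated libraries. The genes were chosen with earlier results of these data known, and their counts beside those of all genes were not tested.

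Between 4 h and 1 h, 8 of the 10 genes differed, 6 lower and 2 higher at 4 h, where 38.5% of all genes tested did so, 18.7% higher and 19.8% lower. Their median change from 1 h to 4 h was −0.39 on the log2 scale, against 0.0074 over all genes. Scaled by library size alone, the share of higher genes among all that passed moved from 49.8% to 32.5% at 1 h and from 48.6% to 65.7% for 4 h against 1 h.

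**Figure D2:**
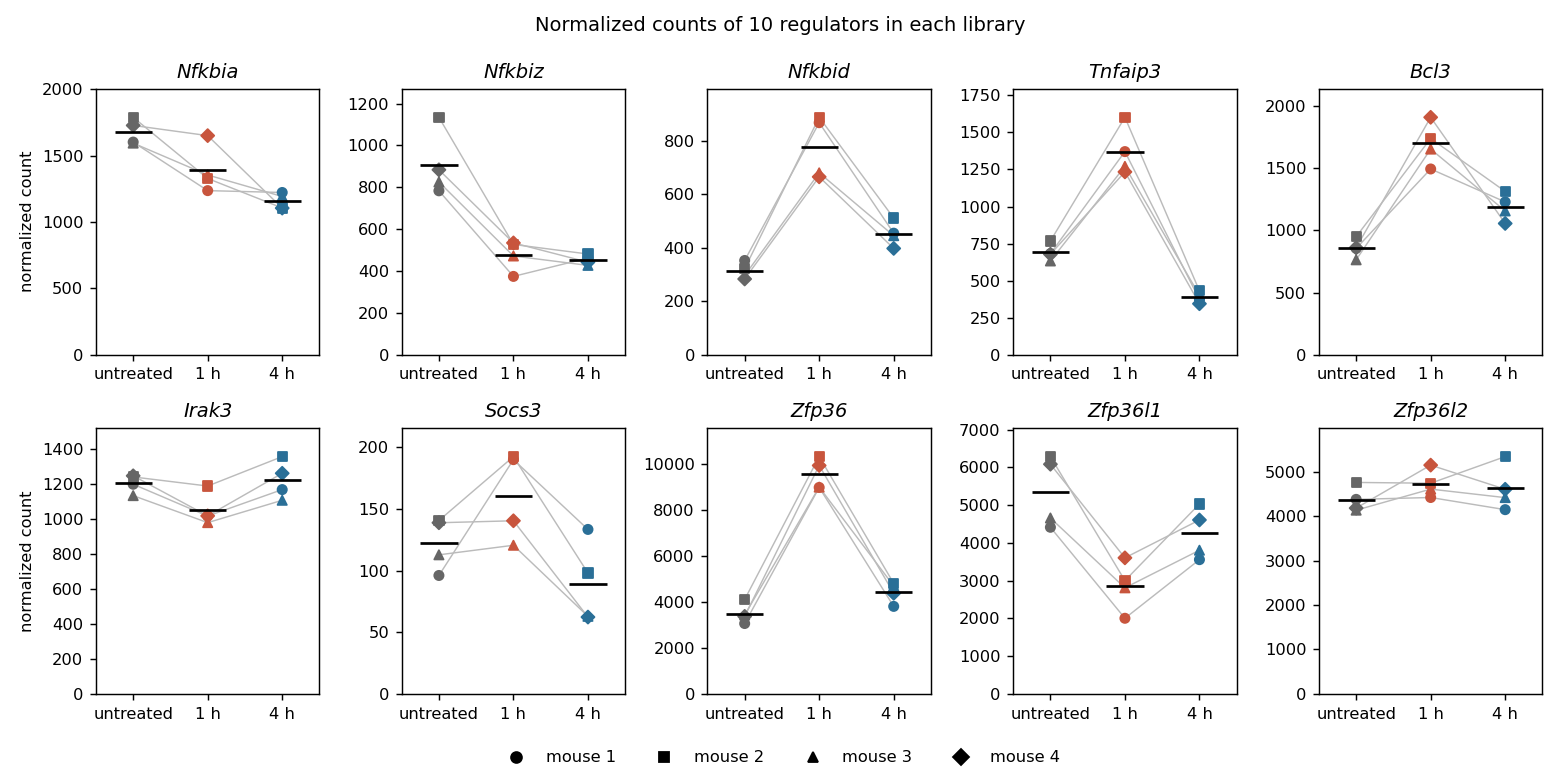
Normalized counts (scaled to the mean library size, linear axes from 0) of the 10 genes in every library, with 1 symbol per mouse, grey lines joining libraries of a mouse and black bars at group means. Zfp36 rises from between 3066 and 4112 to between 8993 and 10336 at 1 h, and Tnfaip3 goes from above its untreated libraries at 1 h to below them at 4 h.

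Nfkbia (ENSMUSG00000021025, chr12:55489410-55492647, minus strand), the cytoplasmic inhibitor, had normalized counts of 1602, 1789, 1594 and 1728 in untreated BMDMs of mice 1 to 4. They were 1236, 1328, 1354 and 1651 at 1 h, and 1222, 1106, 1192 and 1104 at 4 h. The 1 h libraries overlapped the untreated ones through mouse 4, whereas all 4 h libraries lay below every untreated one. The change was small at 1 h (log2 fold change −0.27 ± 0.079 (SE), adjusted p = 0.0267) and larger at 4 h (log2 fold change −0.54 ± 0.08 (SE), adjusted p = 7.68e-05, 0.689 times the untreated mean). Both were negative in 4 of 4 mice. The 1 h call did not hold with only the untreated and 1 h libraries in the fit (adjusted p = 0.0515), nor on leaving out untreated library 2 or 4 or 1 h library 1, 2 or 3 (adjusted p from 0.0729 to 0.0888). The fall from 1 h to 4 h (log2 fold change −0.27 ± 0.08 (SE), adjusted p = 0.0159) was −0.18 with adjusted p = 0.0984 when scaled by library size alone.

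Nfkbiz (ENSMUSG00000035356, chr16:55811375-55838899, minus strand) encodes IκBζ, a nuclear protein that several NF-κB target genes need for their induction. Its counts were 783, 1134, 825 and 883 untreated, 374, 527, 471 and 534 at 1 h and 462, 481, 426 and 442 at 4 h. Every treated library lay below every untreated one. The level fell to 0.526 times untreated at 1 h (log2 fold change −0.92 ± 0.12 (SE), adjusted p = 5.43e-05) and stood at 0.499 times untreated at 4 h (log2 fold change −0.999 ± 0.12 (SE), adjusted p = 1.14e-05). The 1 h and 4 h libraries overlapped, with a difference of −0.074 ± 0.12 (adjusted p = 0.682).

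Nfkbid (ENSMUSG00000036931, chr7:30421732-30428746, plus strand) encodes IκBNS, a nuclear IκB known to limit interleukin-6 production in macrophages. Its counts were 352, 321, 296 and 283 untreated, 868, 888, 680.0 and 665 at 1 h and 454, 511, 445 and 397 at 4 h. The 3 groups did not overlap at any point, with 1 h on top and 4 h between. Nfkbid rose 2.48-fold at 1 h (log2 fold change 1.31 ± 0.11 (SE), adjusted p = 7.12e-07) and remained 1.44-fold above untreated at 4 h (log2 fold change 0.53 ± 0.11 (SE), adjusted p = 0.00185). The difference between 4 h and 1 h was −0.78 ± 0.11 (adjusted p = 6.28e-05). Of the promoter windows of Nfkbid above, 1 held the full CRE, and the part of this element in the rise was not tested.

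Bcl3 (ENSMUSG00000053175, chr7:19808462-19822770, minus strand) encodes the nuclear IκB that pairs with p50 and p52 dimers. Its counts were 856, 949, 763 and 861 untreated, 1495, 1741, 1655 and 1911 at 1 h and 1229, 1314, 1157 and 1056 at 4 h. As for Nfkbid, no library of one group reached the range of another. Bcl3 rose 1.98-fold at 1 h (log2 fold change 0.99 ± 0.088 (SE), adjusted p = 9.11e-07) and 1.39-fold at 4 h (log2 fold change 0.47 ± 0.088 (SE), adjusted p = 0.000544). It fell between the times (log2 fold change −0.52 ± 0.086 (SE), adjusted p = 0.000268). A gene on the opposite strand, Gm16175, covers 6.51% of its exon bases and had 0 counts in every library.

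These 4 IκB genes thus moved in opposite directions. The shares that follow are among these 4 alone and leave out the 3 other IκB genes described below. Of those, 2 rose and 0 fell at 1 h, with Nfkbie going from a mean of 832 to 2645 normalized counts. Nfkbia made up 61.3% ± 1.34 (SD, n = 4) of their summed level per kb in untreated cells, 43.6% ± 2.58 at 1 h and 48.5% ± 2.48 at 4 h. Nfkbiz went from 10.6% ± 1.14 to 4.79% ± 0.48 and then 6.09% ± 0.31. The share of Bcl3 was 20.3% ± 0.68 untreated, 34.7% ± 0.98 at 1 h and 32.4% ± 1.58 at 4 h, and that of Nfkbid 7.86% ± 0.92, 16.9% ± 3.35 and 13.0% ± 0.85. The treated and untreated libraries did not overlap in any of these shares. Their summed level was 86.8 ± 5.91 CPM per kb untreated, 100.8 ± 8.24 at 1 h and 75.5 ± 4.00 at 4 h.

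**Figure D3:**
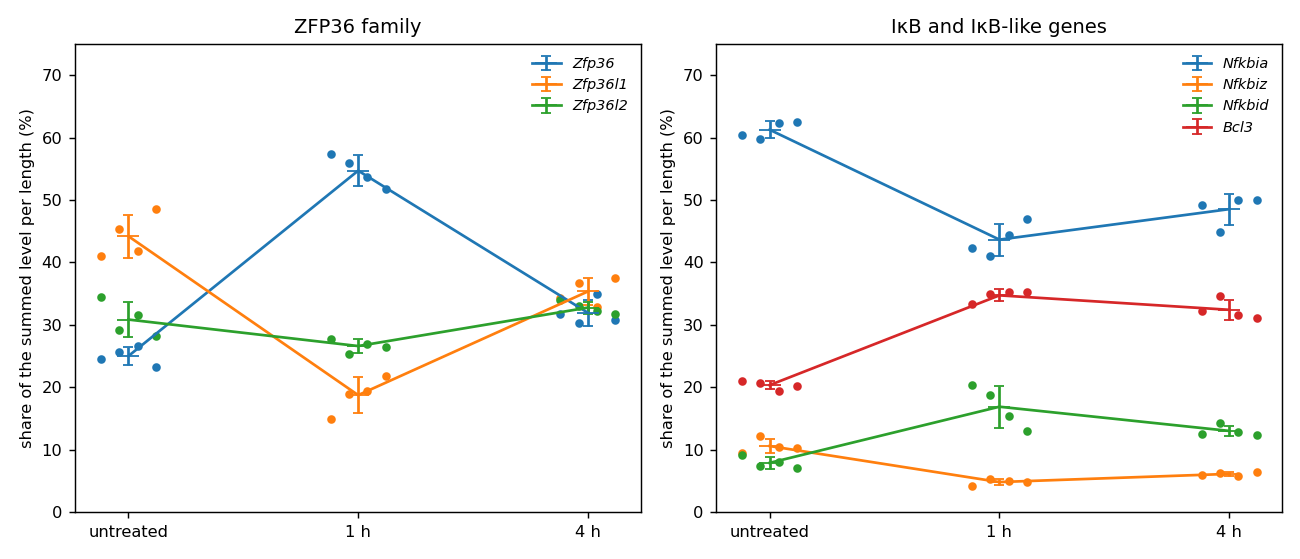
Share (%) of each gene in the summed level per length of the ZFP36 family (left) and of Nfkbia, Nfkbiz, Nfkbid and Bcl3 (right) in untreated BMDMs and after 1 h and 4 h of fenoterol. Dots are libraries, lines and bars the mean ± SD (n = 4). Zfp36 goes from 25.0% to 54.7% at 1 h while Zfp36l1 goes from 44.2% to 18.7%.

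Tnfaip3 (ENSMUSG00000019850, chr10:19000910-19015657, minus strand) encodes A20, the ubiquitin-editing enzyme that ends signalling from tumour necrosis factor and Toll-like receptors. Its counts were 682, 767, 632 and 678 untreated, 1371, 1602, 1271 and 1234 at 1 h and 372, 431, 400.4 and 344 at 4 h. All 1 h libraries lay above every untreated one and all 4 h libraries below. Tnfaip3 rose 1.99-fold at 1 h (log2 fold change 0.99 ± 0.091 (SE), adjusted p = 1.31e-06) and at 4 h was 0.561 times the untreated mean (log2 fold change −0.83 ± 0.095 (SE), adjusted p = 5.59e-06). It was the only one of the 10 genes to pass the test in opposite directions at the 2 times. The difference between 4 h and 1 h, −1.83 ± 0.094 (adjusted p = 2.91e-09), lay between −1.89 and −1.66 in single mice.

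Irak3 (ENSMUSG00000020227, chr10:120141648-120202130, minus strand) encodes IRAK-M. Its counts were 1201, 1243, 1135 and 1249 untreated, 1019, 1190.4, 981 and 1019.6 at 1 h and 1170.0, 1359, 1109 and 1263 at 4 h. The groups overlapped, although within each mouse the 1 h library was the lowest. The 1 h difference missed the threshold (log2 fold change −0.20 ± 0.074 (SE), adjusted p = 0.0776) and passed it with the mouse as a block (−0.20, adjusted p = 0.00873). It also passed without 1 h library 2 (−0.26, adjusted p = 0.0199) and with scaling by library size alone (−0.27, adjusted p = 0.0141). At 4 h the level was 1.02 times untreated (log2 fold change 0.022 ± 0.073 (SE), adjusted p = 0.846). The rise from 1 h to 4 h (log2 fold change 0.22 ± 0.073 (SE), adjusted p = 0.0287) was lost with only the groups compared in the fit (adjusted p = 0.0509) and without 1 h library 1, 3 or 4 or 4 h library 2 or 4 (adjusted p from 0.0662 to 0.116). Reads on the 5.22% of its exon bases shared with Tmbim4 on the opposite strand, which had 663 to 1433 counts per library, could be split only if counting used strand.

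Socs3 (ENSMUSG00000053113, chr11:117966079-117970047, minus strand) was the least abundant of the 10, with 68 to 185 raw counts per library. Its normalized counts were 96.0, 141, 113 and 139 untreated, 190.0, 192, 121 and 140.4 at 1 h and 133, 98.0, 62.9 and 62.3 at 4 h. These groups overlapped and spread widely, with a coefficient of variation of 38% at 4 h. Neither time passed the test against untreated (log2 fold change 0.40 ± 0.24 (SE), adjusted p = 0.281 at 1 h, and log2 fold change −0.46 ± 0.24 (SE), adjusted p = 0.158 at 4 h). The 4 h difference passed with the mouse as a block (−0.49, adjusted p = 0.0450) and without 4 h library 1 (−0.71, adjusted p = 0.0232), the 1 mouse in which 4 h was above untreated. Between 1 h and 4 h Socs3 fell in 4 of 4 mice (log2 fold change −0.86 ± 0.24 (SE), adjusted p = 0.0112).

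Zfp36 (ENSMUSG00000044786, chr7:28376784-28380253, minus strand) encodes tristetraprolin, which shortens the life of the mRNAs of tumour necrosis factor and other cytokines. Its counts were 3066, 4112, 3438 and 3376 untreated, 8993, 10336, 9007 and 9949.8 at 1 h and 3812, 4814, 4703 and 4384 at 4 h. The 1 h libraries lay far above both other groups, whereas the 4 h libraries overlapped the untreated ones. Zfp36 rose 2.74-fold at 1 h (log2 fold change 1.45 ± 0.093 (SE), adjusted p = 2.26e-08), the largest change of the 10 genes against untreated in either direction. At 4 h it was 1.27-fold above untreated (log2 fold change 0.34 ± 0.092 (SE), adjusted p = 0.00805), higher in 4 of 4 mice. The difference between 4 h and 1 h was −1.11 ± 0.092 (adjusted p = 3.18e-07).

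Zfp36l1 (ENSMUSG00000021127, chr12:80107754-80113013, minus strand), which leads the family before treatment, had counts of 4414, 6285, 4659 and 6084 untreated, 2003, 3001, 2809 and 3604 at 1 h and 3556, 5031, 3806 and 4607 at 4 h. Every 1 h library lay below every untreated one, and the 4 h libraries overlapped both other groups. Zfp36l1 fell to 0.532 times untreated at 1 h (log2 fold change −0.91 ± 0.17 (SE), adjusted p = 0.00114) and rose again between 1 h and 4 h (log2 fold change 0.57 ± 0.17 (SE), adjusted p = 0.0137). At 4 h it stood at 0.793 times untreated (log2 fold change −0.33 ± 0.17 (SE), adjusted p = 0.127), and lower in 4 of 4 mice, with differences between −0.40 and −0.29 on the log2 scale. With the mouse as a block this difference passed (−0.33, adjusted p = 0.000602). Gm26669 on the opposite strand covers 55.9% of the Zfp36l1 exon bases and had 2 to 10 counts per library, where again only counting by strand could tell the reads apart.

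Zfp36l2 (ENSMUSG00000045817, chr17:84183931-84187947, minus strand) had counts of 4379.9, 4761, 4137 and 4184 untreated, 4422, 4744, 4611 and 5151 at 1 h and 4149, 5343, 4419.7 and 4608 at 4 h. All groups overlapped and no comparison passed the test (log2 fold change 0.12 ± 0.077 (SE), adjusted p = 0.345 at 1 h, and log2 fold change 0.085 ± 0.077 (SE), adjusted p = 0.416 at 4 h).

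Within the ZFP36 family the order of levels per kb changed at 1 h. Zfp36 took 25.0% ± 1.46 (SD, n = 4) of the summed level untreated, 54.7% ± 2.47 at 1 h and 31.9% ± 2.10 at 4 h. Zfp36l1 took 44.2% ± 3.45, 18.7% ± 2.88 and 35.3% ± 2.16. The share of Zfp36l2 was 30.8% ± 2.78, 26.6% ± 1.06 and 32.7% ± 0.95. At 1 h Zfp36 stood at 140.7 ± 9.97 CPM per kb, ahead of Zfp36l2 at 68.4 ± 4.46 and Zfp36l1 at 48.7 ± 11.3. At 4 h libraries of Zfp36l1 and Zfp36l2 overlapped, as did those of Zfp36l2 and Zfp36, so the order was not resolved. The family's summed level was 206 ± 24.2 untreated, 258 ± 23.5 at 1 h and 204 ± 23.8 at 4 h. Untreated and 1 h libraries overlapped, although within each mouse the sum was higher at 1 h. The sum was not tested.

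**Figure D4:**
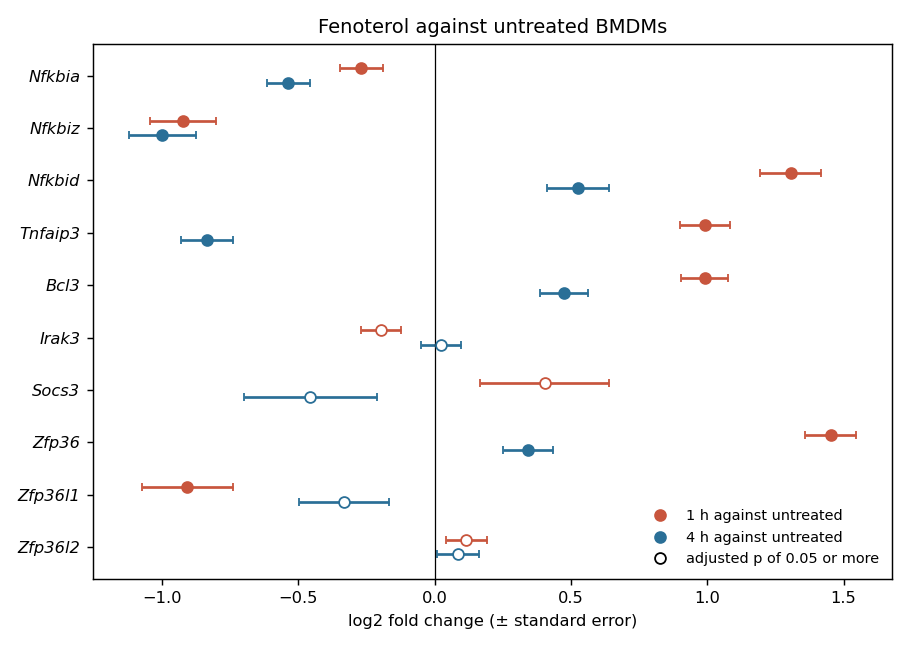
Log2 fold change (± SE) of the 10 genes after 1 h and 4 h of fenoterol against untreated BMDMs (n = 4 libraries a group, edgeR). Filled symbols have an adjusted p under 0.05. At 1 h Zfp36, Nfkbid, Tnfaip3 and Bcl3 lie between 0.99 and 1.45, and Nfkbiz and Zfp36l1 near −0.9.

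Across the 12 libraries, Nfkbid, Bcl3 and Zfp36 followed each other closely, with Pearson r of log2 normalized counts between 0.928 and 0.930 for the 3 pairs. Nfkbia and Nfkbiz had r = 0.86, and Nfkbid and Zfp36l1 had r = −0.86. Of all other genes tested, the one most like Zfp36 was Nr4a1, an immediate-early nuclear receptor (r = 0.993), which went from 130.9 normalized counts untreated to 4624 at 1 h and 262.8 at 4 h. The one most like Tnfaip3 was Tlr2, a receptor for bacterial lipopeptides (r = 0.994), with mean counts of 3997, 6693 and 2505. Those most like the others were Tex2 for Nfkbid (0.985), Ikzf1, a haematopoietic transcription factor, for Nfkbiz (0.98), Bbc3, which encodes the death-promoting protein PUMA, for Nfkbia (0.976), and Stk11, the kinase LKB1, for Bcl3 (0.970). Rspry1 was most like Irak3 (0.971), Tsku most like Zfp36l1 (0.942), Snx3 most like Socs3 (0.923) and Gm42664 most like Zfp36l2 (0.838). These libraries share 3 groups, 4 mice and 1 scaling, so r describes them and was not tested.

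The surrounding pathway was read through 10 lists of 112 genes, of which 105 were tested. At 1 h 47 of them passed, 26 higher and 21 lower, at 4 h 55, 32 higher and 23 lower, and between the times 56, 28 in each direction. These are 44.8%, 52.4% and 53.3% of the tested genes in the lists, beside 20.1%, 40.0% and 38.5% of all genes. The lists were chosen with earlier results of these data known, and these shares were not tested. Of the 5 NF-κB subunits, 2 rose and 0 fell at 1 h, with a median log2 fold change of 0.032. Rel, the c-Rel subunit, rose by 0.86 ± 0.08 (log2 fold change ± SE, as for the genes that follow, where a time not given did not pass, adjusted p = 1.51e-06), and Nfkb2, the p100/p52 precursor, by 0.50 ± 0.078. At 4 h 2 were higher and 1, Nfkb1, was lower (log2 fold change −0.24 ± 0.06), and the median was −0.0015. Nfkb2 was then at 0.27 ± 0.078, a call lost without untreated library 3 (adjusted p = 0.0576). The 4 h call of Rel (0.22 ± 0.08, adjusted p = 0.0382) was lost without any 1 of untreated libraries 1 to 4, 1 h library 3, or 4 h libraries 2, 3 and 4 (adjusted p from 0.0534 to 0.126).

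Of the 3 other IκB genes, 2 rose and 0 fell at 1 h (median 0.63), and 1 was higher and 0 lower at 4 h (median −0.012). Of all genes, 20.1% passed at 1 h and 40.0% at 4 h, and 1 of 3 did not exceed the latter. Nfkbie, the gene of IκBε, rose by 1.67 ± 0.074 at 1 h (adjusted p = 3.91e-10), from a mean of 832 to 2645 normalized counts, and by 0.48 ± 0.073 at 4 h. Nfkbil1, a more distant relative, rose by 0.63 ± 0.094 at 1 h. Of the 11 IKK complex and related kinase genes, 1 rose and 3 fell at 1 h (median −0.089), and 4 were higher and 3 lower at 4 h (median 0.11). The largest change was that of Map3k8, the TPL2 kinase held by p105, at −1.64 ± 0.078 (adjusted p = 8.95e-10) and −0.91 ± 0.075 at the 2 times. Tab1 and Tab2, partners of the TAK1 kinase, fell at 1 h (−0.57 ± 0.08 and −0.36 ± 0.064), and Tab2 alone of the pair was lower at 4 h (−0.39 ± 0.064). Chuk, which encodes IKKα, was higher at 4 h (0.51 ± 0.061), as was Map3k14, the kinase NIK (0.41 ± 0.12). Chuk was also the gene that rose at 1 h (0.20 ± 0.061, adjusted p = 0.0299), a call lost in 7 of 22 alternatives, among them without untreated library 2 or 4 or 1 h library 1 or 2 (adjusted p from 0.0637 to 0.0914).

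Of the 12 Toll-like and interleukin-1 receptor adaptor genes, 1 rose and 4 fell at 1 h (median −0.078), and 3 were higher and 2 lower at 4 h (median 0.093), where 5 of 12 was near the 40.0% of all genes. Irak2, a kinase of the IRAK family, rose by 0.54 ± 0.064 at 1 h and 0.26 ± 0.064 at 4 h. Ticam1, the adaptor TRIF, had log2 fold changes of −0.83 ± 0.078 and −0.65 ± 0.077. Ripk1 was lower at 1 h (−0.41 ± 0.063), and Tirap, the adaptor that brings in MyD88, was higher at 4 h (0.56 ± 0.074). At 1 h Tirap was lower (−0.23 ± 0.076, adjusted p = 0.0459), a call lost in 16 of 22 alternatives, among them without any 1 of untreated libraries 1 to 3, 1 h libraries 1 to 4, or 4 h libraries 1 and 3 (adjusted p from 0.0509 to 0.138). Of the 13 ubiquitin-editing genes, 2 rose and 4 fell at 1 h (median 0.040), and 3 were higher and 4 lower at 4 h (median −0.038). Beside these stand 20.1% of all genes at 1 h and 40.0% at 4 h. Tnip1, whose protein ABIN1 works with A20, had log2 fold changes of −0.54 ± 0.073 at 1 h, where Tnfaip3 rose, and −0.34 ± 0.073 at 4 h. Otulin, which removes linear ubiquitin chains, was lower at both times (−0.50 ± 0.056 and −0.89 ± 0.056). Peli1, a ubiquitin ligase, was lower at 1 h (−0.77 ± 0.084) and at 4 h (−0.26 ± 0.082), the latter lost without untreated library 2 or 4 h library 1 or 3 (adjusted p from 0.0607 to 0.0729). Otud7b, a deubiquitinase relative of A20, was lower at 1 h (−0.25 ± 0.076, adjusted p = 0.0298) and higher at 4 h (0.45 ± 0.075). Its 1 h call was lost with only the groups compared in the fit (adjusted p = 0.0704) and without untreated library 1, 2 or 4 or 1 h library 2 or 3 (adjusted p from 0.0546 to 0.0910).

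**Figure D5:**
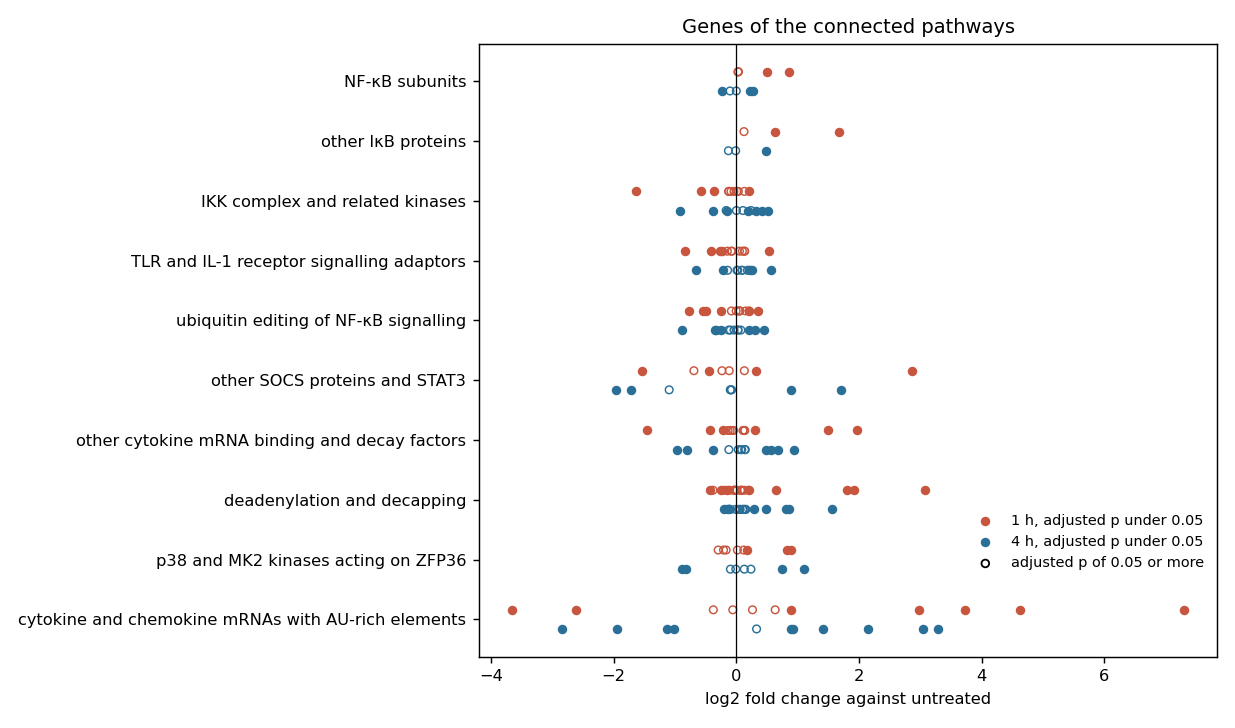
Log2 fold change of each tested gene in 10 lists of genes that work with the 10 regulators, at 1 h and 4 h of fenoterol against untreated BMDMs. Filled points have an adjusted p under 0.05 (edgeR), which holds for 47 of 105 genes at 1 h and 55 at 4 h, on both sides of 0.

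Of the 13 other cytokine mRNA binding and decay factors, 3 rose and 3 fell at 1 h (median −0.046), and 4 were higher and 3 lower at 4 h (median 0.087). Beside these stand 20.1% of all genes at 1 h and 40.0% at 4 h. Zc3h12a, the gene of the endonuclease Regnase-1, rose by 1.499 ± 0.063 at 1 h (adjusted p = 2.26e-10), from a mean of 754 to 2132 normalized counts, and by 0.49 ± 0.063 at 4 h. Its paralog Zc3h12d had log2 fold changes of −1.46 ± 0.074 and −0.81 ± 0.072, and Zc3h12c of −0.43 ± 0.072 and −0.97 ± 0.074. The Zc3h12 genes, like the ZFP36 family, thus changed in opposite directions at 1 h. Arid5a, whose protein protects interleukin-6 mRNA from Regnase-1, rose by 1.97 ± 0.08 at 1 h and 0.68 ± 0.08 at 4 h. N4bp1, another RNA endonuclease, was higher at 4 h (0.94 ± 0.075).

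Of a list of 17 genes with AU-rich elements in their mRNAs, for cytokines, chemokines and the enzyme cyclooxygenase-2, 11 were tested. At 1 h 5 rose and 2 fell (median 0.63), and at 4 h 6 were higher and 4 lower (median 0.89). Beside these stand 20.1% of all genes at 1 h and 40.0% at 4 h. Il1b rose by 4.63 ± 0.26 at 1 h and 3.28 ± 0.26 at 4 h, and Osm, oncostatin M, by 3.72 ± 0.095 and 1.42 ± 0.096. Ptgs2, the gene of cyclooxygenase-2, went from a mean of 5.55 normalized counts to 873 at 1 h and 45.9 at 4 h. Ccl3, a chemokine of the same list, was lower at 1 h (−3.65 ± 0.18, adjusted p = 1.51e-09) and at 4 h (−2.84 ± 0.17, adjusted p = 7.57e-09). The other called genes of the list are named after their values were seen. Ccl4 was at −2.61 ± 0.18 and −1.95 ± 0.17, and Tnf, the tumour necrosis factor gene, at −1.02 ± 0.15 and Il10, the gene of interleukin-10, at −1.13 ± 0.22 at 4 h (adjusted p = 6e-05 and 0.000916). Cxcl2 rose by 0.89 ± 0.18 and 0.92 ± 0.18 (adjusted p = 0.00219 and 0.000756), and Ccl2 was higher at 4 h (0.89 ± 0.27, adjusted p = 0.0168), a call lost without untreated library 2 or 4 h library 1 or 3 (adjusted p from 0.0516 to 0.0586). Il1a rose from a mean of 2.10 normalized counts to 17.3 at 1 h and 9.60 at 4 h (adjusted p = 0.0097 and 0.0435), the latter lost in 10 of the 20 alternatives that gave it a value, among them without any 1 of untreated libraries 1 to 4, 1 h library 2, or 4 h libraries 1 and 4 (adjusted p from 0.0526 to 0.135).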

How the data were processed

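RNA-seq libraries were made from total RNA of BMDMs with Illumina's stranded mRNA kit and read as single ends of 50 bases. Per the labels and methods, the authors mapped reads to GRCm38 with TopHat2 (2.0.11) and counted genes with HTSeq (0.8.0). The deposited values are the authors' raw counts per Ensembl gene, not normalized. The annotation release and the strand option of counting are not given in the sources used here. Symbols came from GENCODE M21, in which 105 identifiers with 0.00461% of counts had no match. The 10 genes and all lists were chosen with earlier results of these data known.

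Counts were tested with edgeR (4.0.16) in R (4.3.3) by quasi-likelihood, after filterByExpr and TMM scaling, in 1 fit of all 12 libraries that had 3 group means and no other term, and p-values were adjusted by Benjamini-Hochberg over 12386 genes. The TMM factors lay between 0.953 and 1.04 and the biological coefficient of variation was 0.112. Normalized counts are counts scaled by TMM to the mean library size. Levels per kb divide CPM by all exon bases of the gene, with CPM there taken relative to the library total times its TMM factor. The CPM sums of cell markers use the library total alone. The genes named from each list are the up to 3 with the largest change at each time among those past the threshold and averaging 50 normalized counts or more, and the gene most like each regulator by Pearson r.

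The labels give the same mouse numbers in every group, and libraries of 1 mouse deviated together (r from 0.29 to 0.561 over 12 pairs, against −0.304 to 0.0912 over 36 pairs of different mice), so the mouse was also fitted as a block. No replicates differed by as little as counting noise (chi-square per degree of freedom from 9.38 to 19.5 over 18 pairs). The cultures of a mouse were not replicated, so the spread behind the p-values mixes differences between mice, cultures and libraries. In the main fit it includes differences between mice that all groups share, which the block takes out. In counts simulated for 1 h against untreated, with 12255 genes tested, the test recovered 38 of 50 genes changed 1.5-fold, 47 of 50 changed 2-fold, and 50 of 50 at 4-fold and at 8-fold, with 9 false calls. The simulated libraries had no effect of the mouse. Their changed genes averaged 50 counts or more, went up and down equally often and were fewer than those called in the data. The figures hold for that setting only. Alternatives were DESeq2 (1.42.0), limma-voom and limma-trend (limma 3.58.1), RLE or library-size scaling, other filters on low counts, a threshold of 0.01, fits of only the groups compared, and leaving out each library. Protein sequences were not used here.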

Additional observations from a re-analysis of the deposited data

Results flagged for a closer look

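The difference between 4 h and 1 h was tested directly for each of the 10 genes, and 8 passed at an adjusted p under 0.05 (edgeR), where 38.5% of all genes tested did. On the log2 scale Tnfaip3 moved by −1.83, Zfp36 by −1.11, Socs3 by −0.86, Nfkbid by −0.78, Bcl3 by −0.52 and Nfkbia by −0.27, all lower at 4 h in 4 of 4 mice. Zfp36l1 moved by 0.57 and Irak3 by 0.22, both higher at 4 h in 4 of 4 mice. Nfkbiz and Zfp36l2 did not pass. Of the 105 tested genes of the pathway lists, 56, or 53.3%, differed between the times. In the 30 sets of 4 libraries tested for a value far from the rest, 0 were found, where chance gives about 1.5.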

How the results depend on the processing

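The 30 log2 fold changes of the 10 genes were recomputed under 22 alternatives each, 660 in all, and 630 kept direction and side of the threshold, 18 lost the call, 6 gained it and 6 reversed. For 19 of the 30 no alternative changed either. None of the 6 reversals concerned a called difference. Irak3 at 4 h against untreated became −0.016 without untreated library 3 and −0.030 without 4 h library 2, and ranged up to 0.068 without other single libraries. For 4 h against 1 h, scaling by library size alone gave 0.018 for Nfkbiz and 0.061 for Zfp36l2, and Zfp36l2 was 0.011 without 1 h library 4 and 0.018 without 4 h library 1, against a lowest value of −0.11 without 4 h library 2. That scaling moved the median of all genes to −0.073 at 1 h and 0.10 for 4 h against 1 h. At an adjusted p under 0.01 the count of all genes at 1 h went from 2493 to 1580, and for 4 h against 1 h the count of all genes from 4773 to 3296 and that of the 10 genes from 8 to 4. With the longest transcript as length, 3 genes changed place in the order of untreated levels. With the mouse as a block, 3348, 5870 and 5775 genes passed at 1 h, 4 h and between the times, and 8, 8 and 8 of the 10. The block added Irak3 at 1 h (−0.20) and Socs3 (−0.49) and Zfp36l1 (−0.33) at 4 h, and changed no other call of the 10 genes. The fold changes of the called pathway and marker genes named here kept direction and side in 1719 of 1800 alternatives, and 81 lost the call. Of these, 16 were Tirap, 10 Mapkapk3, 7 Chuk, 7 Otud7b and 4 Mertk at 1 h, and 10 Il1a, 9 Rel, 4 Ccl2, 4 Peli1, 4 Cd68, 3 Adgre1, 2 Nfkb2 and 1 Map3k14 at 4 h. The cause of these changes was not tested beyond what each setting names. Socs3 had the fewest counts of the 10, 68 to 185 per library.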

Other observations

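The enzymes that ZFP36 proteins bring to an mRNA were listed as 21 deadenylation and decapping genes, of which 5 rose and 3 fell at 1 h and 5 were higher and 2 lower at 4 h (edgeR, adjusted p under 0.05), with medians of 0.0095 and 0.062 on the log2 scale. Of all genes tested 20.1% passed at 1 h and 40.0% at 4 h, so the 7 of 21 at 4 h were no more than that share. The list includes BTG and TOB genes, whose proteins dock onto the CCR4-NOT deadenylase. Btg2 rose by 3.08 ± 0.10 (log2 fold change ± SE) at 1 h and 0.81 ± 0.097 at 4 h, from a mean of 1261 normalized counts untreated to 10649 and 2216. Btg1 rose by 1.80 ± 0.084 and 1.56 ± 0.083, and Tob1 by 1.92 ± 0.12 and 0.85 ± 0.13. Tob2, named after its values were seen, rose by 0.65 ± 0.061 at 1 h and was at −0.15 ± 0.061 at 4 h (adjusted p = 0.0674).

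The kinases that switch tristetraprolin off by phosphorylation, and the phosphatase that reverses it, were listed as 9 genes, 8 of them tested. At 1 h 3 rose and 0 fell, and at 4 h 2 were higher and 2 lower, the latter 4 of 8 being near the 40.0% of all genes. Map2k3, which activates p38, rose by 0.89 ± 0.070 and 1.09 ± 0.070, and Ppp2ca, the catalytic subunit of phosphatase 2A, by 0.82 ± 0.077 and 0.74 ± 0.077. Mapkapk2 and Mapkapk3, the kinases that act on tristetraprolin, were lower at 4 h (−0.88 ± 0.055 and −0.82 ± 0.058), and Mapkapk3 was at 0.18 ± 0.057 at 1 h, where its call was lost in 10 alternatives, among them without untreated library 3 or 4, 1 h library 1, 2 or 4, or 4 h library 4 (adjusted p from 0.0512 to 0.123). Beside Socs3, the other 7 SOCS genes and Stat3 held 2 that rose and 2 that fell at 1 h and the same numbers at 4 h, or 4 of 8 beside 20.1% and 40.0% of all genes. Stat3, whose signalling SOCS3 limits, rose by 0.32 ± 0.067 and 0.90 ± 0.067, Socs6 was at −1.54 ± 0.092 and −1.96 ± 0.094, and Socs5 at −0.45 ± 0.063 at 1 h.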
